A study of Mus musculus with 4 samples.

Results

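Heat shock proteins, their co-chaperones, the cytosolic chaperonin and the prefoldins were described in lung group 2 innate lymphoid cells (ILC2s), with and without an antibody against CD226. The set held 31 of the 17187 genes in the deposited table, chosen by gene symbol: the heat shock transcription factor Hsf1, the small heat shock protein Hspb1, HSP70, HSP40, HSP90 and HSP60 family members outside the endoplasmic reticulum, 7 co-chaperones, the 8 subunits of the chaperonin CCT and a pair of prefoldin subunits. All 31 were in the table, and 30 passed the filter on low values, a mean of 10 normalised reads over the 4 libraries. Hspb1 did not pass it.

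ILC2s are lymphocytes without antigen receptors that secrete type 2 cytokines, and CD226 is a costimulatory receptor of lymphocytes. Per the labels, the cells came from BALB/c lungs by sorting and were kept in culture for 18 hours. One group of 2 libraries received an isotype control antibody and the other group of 2 libraries an anti-CD226 antibody. The dose in the labels is 5 µg/mL, which may or may not refer to both antibodies. The design text speaks of wild-type mice that were treated, and the treatment column of the table names the controls PBS. Here the sample labels decided the groups. They do not state the animals' age or sex, or whether cells of several mice were pooled. Nor do they say if replicates are separate mice or cultures, and a p-value therefore measures no more than how far these libraries scatter, which may be technical.

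The libraries held an estimated 12433729 to 17847306 reads, with 16602 to 16847 genes above 0. All 12 ILC2 markers were above the filter and together made up 1.30% to 1.40% of the signal. Of the 12, 7 were higher and 5 lower with anti-CD226. Il5, the highest of them, stood at 95010 and 97655 with the isotype control and at 85431 and 67864 with anti-CD226. Il13, with the smallest p of that list, stood at 2773 and 3419 against 2725 and 921. Cd226 itself stood at 942 and 1042 normalised reads with the isotype control and at 1001 and 985 with anti-CD226; an antibody against the protein need not alter its transcript, so this does not check the labels. Anti-CD226 replicate 2 stood apart from the other 3 libraries. Over genes, which are no independent replicates, its Pearson correlation with each of them was 0.968 to 0.977, against 0.986 to 0.987 among the other 3. It carried less signal from the 20 ribosomal protein genes listed (0.515% against 0.819% to 0.984%). Isotype replicate 2 carried the most signal from the 13 mitochondrially encoded genes (0.672% against 0.445% to 0.524%) and was the highest library in 10 of them. Of 15 macrophage and monocyte markers listed, 11 were analysed and none was at 0 in every library. Their summed level was 292 to 304 in isotype libraries and 595 to 1928 in anti-CD226 libraries, the highest in replicate 2, where Mmp12, the macrophage elastase, stood at 678 and Chil3, a chitinase-like protein of alveolar macrophages, at 784. Mpeg1 was at 0 in both isotype libraries. Other markers of the list overlapped between groups. Csf1r stood at 2.21 and 1.90 against 1.03 and 2.62, and Adgre1 at 2.21 and 7.73 against 7.21 and 2.20. Apoe stood at 14.4 and 10.8 against 11.3 and 13.2, and Ctss, the highest of the list, at 190 and 230 against 289 and 227. Of the 7 markers tested, 6 were higher and 1 lower with anti-CD226. The filter, a mean over all 4 libraries, shaped this set. Chil3 (19.9 and 0 with the isotype control), Lyz2 (3.32 and 0.773) and Itgax (1.11 and 0) passed it only through the anti-CD226 libraries. Csf1r, Adgre1, Itgam and Mpeg1 did not pass it. Summed T cell markers ranged from 2241 to 3706, lowest in anti-CD226 replicate 2, and those of mast cells and basophils from 940.3 to 1468, highest there. In the mast cell and basophil list, Kit had the highest level. Of the 5 markers tested from that list, 2 were higher and 3 lower with anti-CD226, at a median log2 difference of -0.76. Neutrophil and fibroblast markers summed to at most 1.11 and 9.95. Mmp12, the mast cell protease Cpa3 and the mitochondrial mt-Nd3 had the smallest p of their lists. Cpa3 stood at 84.0 and 100.4 against 37.1 and 63.9, and mt-Nd3 at 474 and 683 against 422 and 212. Each of these genes had an unadjusted p below 0.05 and an adjusted p of 0.98 (limma). In the macrophage and monocyte list, 5 of the 7 markers tested, a set shaped by the filter, had an unadjusted p below 0.05 (limma). So did 3 of the 5 mast cell and basophil markers, against 2.37% of all genes tested. In bulk RNA, fewer cells of a type and less RNA per cell cannot be told apart. Whether any of these moves had a part in the results below was not tested.

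Chaperones help other proteins to fold. HSF1, held inactive in unstressed cells, binds heat shock elements, repeats of GAA in alternating orientation, and drives transcription of chaperone genes when unfolded proteins build up. HSP70 proteins bind exposed peptide stretches with the help of HSP40 proteins, which stimulate their ATPase, and of exchange factors such as BAG3 and the HSP110 proteins. HSP90 takes over later folding intermediates, among them kinases and steroid receptors, and its co-chaperones time its cycle. CCT, a double ring of 8 different subunits, folds actin and tubulin, which prefoldin hands to it. HSP60 and its lid HSP10 form the chaperonin of the mitochondrial matrix.

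Promoters are shown first for 3 members with the most heat shock element letters, and for Bag3 and Pfdn5, which had the highest and the lowest log2 difference between groups. RefSeq promoter windows on GRCm38.p6, from 250 bases before to 50 bases after a gene's start, were found for 25 of the 31 members. They were searched for TTCNNGAA and for GAANNTTC, each of which is its own reverse complement, so that both strands are covered; matches may overlap each other. A match was found for 12 of the 25 members (48.0%) and for 17.0% of all genes in the promoter table. Hspd1, Hspe1, Hsph1 and Chordc1 had at least 3 matches in a window, which 0.296% of all genes had. Among the 7 CCT genes with a window, 3 had a match. In the stretches of 100 bases below the capitals mark the GAA and TTC repeats of each match. The Hspe1 stretch is chr1:55088018-55088117 on the plus strand, from 130 to 31 bases before the start. Hsph1 is chr5:149636287-149636386 on the minus strand, Chordc1 chr9:18292217-18292316 and Bag3 chr7:128523533-128523632 on the plus strand, each from 50 bases before to 50 bases after the start. The Pfdn5 stretch, chr15:102326016-102326115 on the plus strand, is the 100 bases before its start and has no match, like the rest of its window.
Hspe1: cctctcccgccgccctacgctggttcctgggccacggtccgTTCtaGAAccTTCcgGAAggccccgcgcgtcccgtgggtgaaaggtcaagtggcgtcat
Hsph1: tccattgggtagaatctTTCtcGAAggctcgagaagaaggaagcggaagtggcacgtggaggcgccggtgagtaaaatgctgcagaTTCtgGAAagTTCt
Chordc1: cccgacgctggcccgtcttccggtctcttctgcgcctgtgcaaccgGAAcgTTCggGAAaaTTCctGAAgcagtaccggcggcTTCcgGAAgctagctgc
Bag3: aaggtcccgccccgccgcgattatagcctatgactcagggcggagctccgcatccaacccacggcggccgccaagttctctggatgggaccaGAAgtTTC
Pfdn5: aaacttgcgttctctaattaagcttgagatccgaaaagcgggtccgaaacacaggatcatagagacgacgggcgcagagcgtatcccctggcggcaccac
The Hspe1 stretch also lies in a promoter window of Hspd1, chr1:55087883-55088182, read from the other strand. This window and that of Hspe1 share 285 bases. Their starts lie 216 bases apart, with 3 overlapping matches between them. Hspd1 has another window, chr1:55088194-55088493, with 0 matches, to which this distance does not apply. A match is a run of letters, not a bound site, and the absence of one speaks only of these windows.

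Comparing the groups asks which chaperone transcripts of ILC2s differ when the antibody binds CD226. No member passed in limma, which estimates the spread of a gene partly from all genes. At an adjusted p below 0.05 (limma on log2(value + 1), Benjamini-Hochberg over the 13010 genes tested), 0 of 30 members and 0.0% of all genes were called, and the smallest adjusted p of a member was 0.982. At an unadjusted p below 0.05 the members numbered 0, where 2.37% of all genes passed (1.55% higher and 0.815% lower). The smallest unadjusted p among them was 0.110, for Dnajb1. The groups did not overlap in 5 of 30 members (16.7%), against 26.8% of all genes tested. Of these, 2 were higher and 3 lower with anti-CD226, against 13.8% and 13.0% of all genes. The log2 difference was above 0 in 12 members and below 0 in 18. With 1 library left out, the groups did not overlap in 15 of 30 members without isotype replicate 1 (64.2% of all genes), in 10 without isotype replicate 2 (47.6%), in 26 without anti-CD226 replicate 1 (82.6%) and in 19 without anti-CD226 replicate 2 (59.3%). The median log2 difference was -0.04, against 0.01 over all genes, and it turned to 0.05 without anti-CD226 replicate 2 and to 0.0076 without isotype replicate 2.

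The level of these genes varied little between libraries. The median size of a member's log2 difference, whatever its sign, was 0.07. It was 0.17 over all genes tested and 0.13 over the 3300 genes with a mean of at least 1000, a level that 25 of the 30 members reached. The highest library was less than 1.5 times the lowest in 27 members (90.0%), in 58.5% of all genes tested and in 76.4% of those with a mean of at least 1000. The 3 other members were Bag3, Hspe1 and Pfdn5, and in each of them anti-CD226 replicate 2 was the library that stood apart. These comparisons with other genes were not matched for transcript length. The length deciles around 1971 and 2412 bases held 7 and 10 members. Their median genes differed by -0.11 and -0.04 on the log2 scale between anti-CD226 replicates 2 and 1. With 2 libraries a group the precision is limited: the 95% interval of the log2 difference lay within 0.5 of 0 for 17 members and within 1 of 0 for 29, so smaller differences than these may be present. The 31 members together made up 1.27% and 1.30% of the isotype signal and 1.31% and 1.22% of the anti-CD226 signal (exact permutation test, two-sided, p = 1.0; the smallest p that 2 against 2 libraries allow is 0.33).

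**Figure D1:**
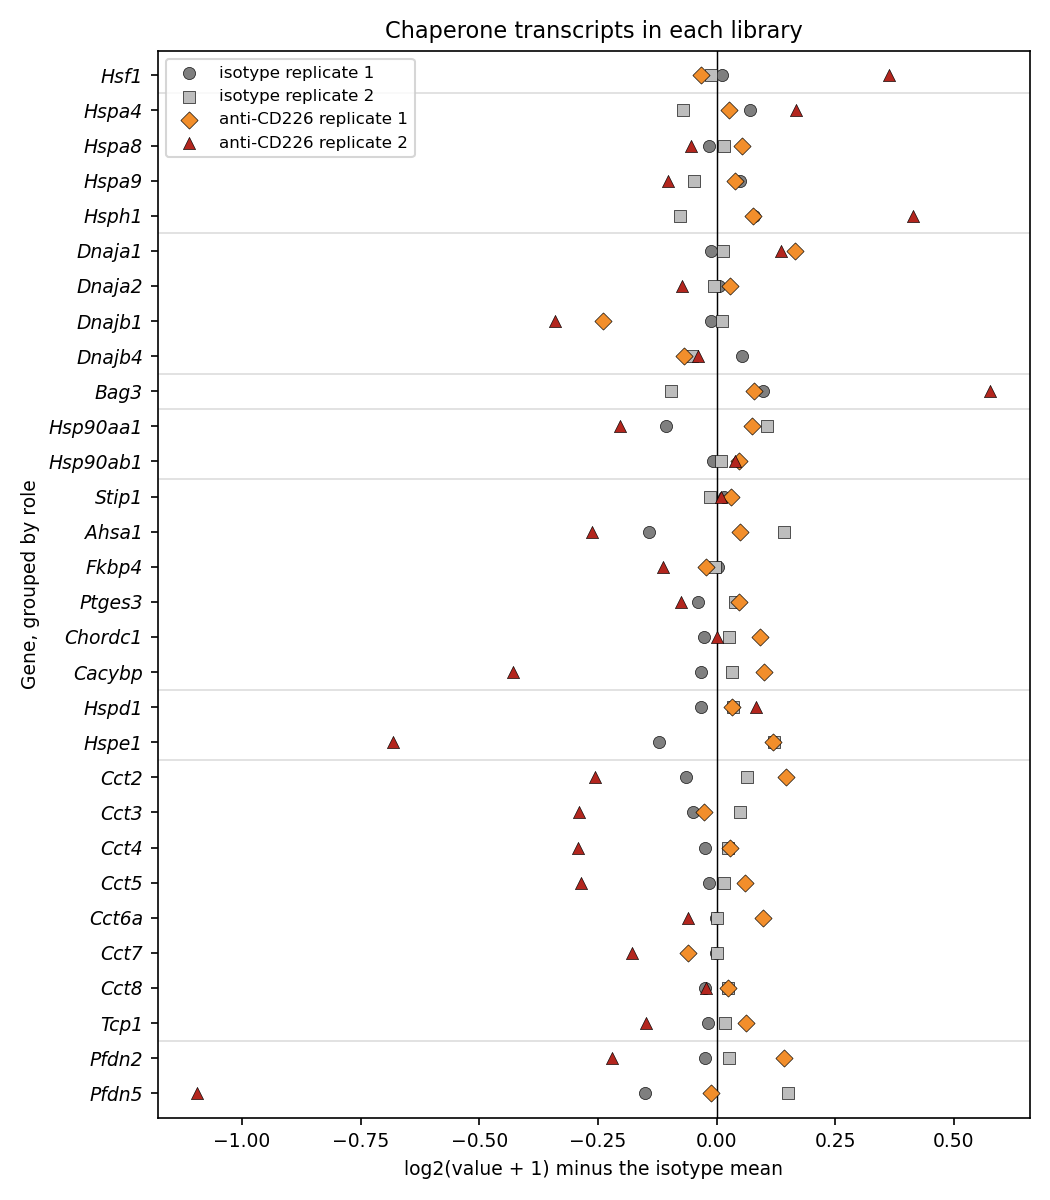
Each row is a gene, grouped by role, and each point a library; the x axis is log2(value + 1) minus the mean of the 2 isotype libraries. Most points lie close to 0, and anti-CD226 replicate 2 reaches 0.58 for Bag3 and -1.09 for Pfdn5.

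**Figure D2:**
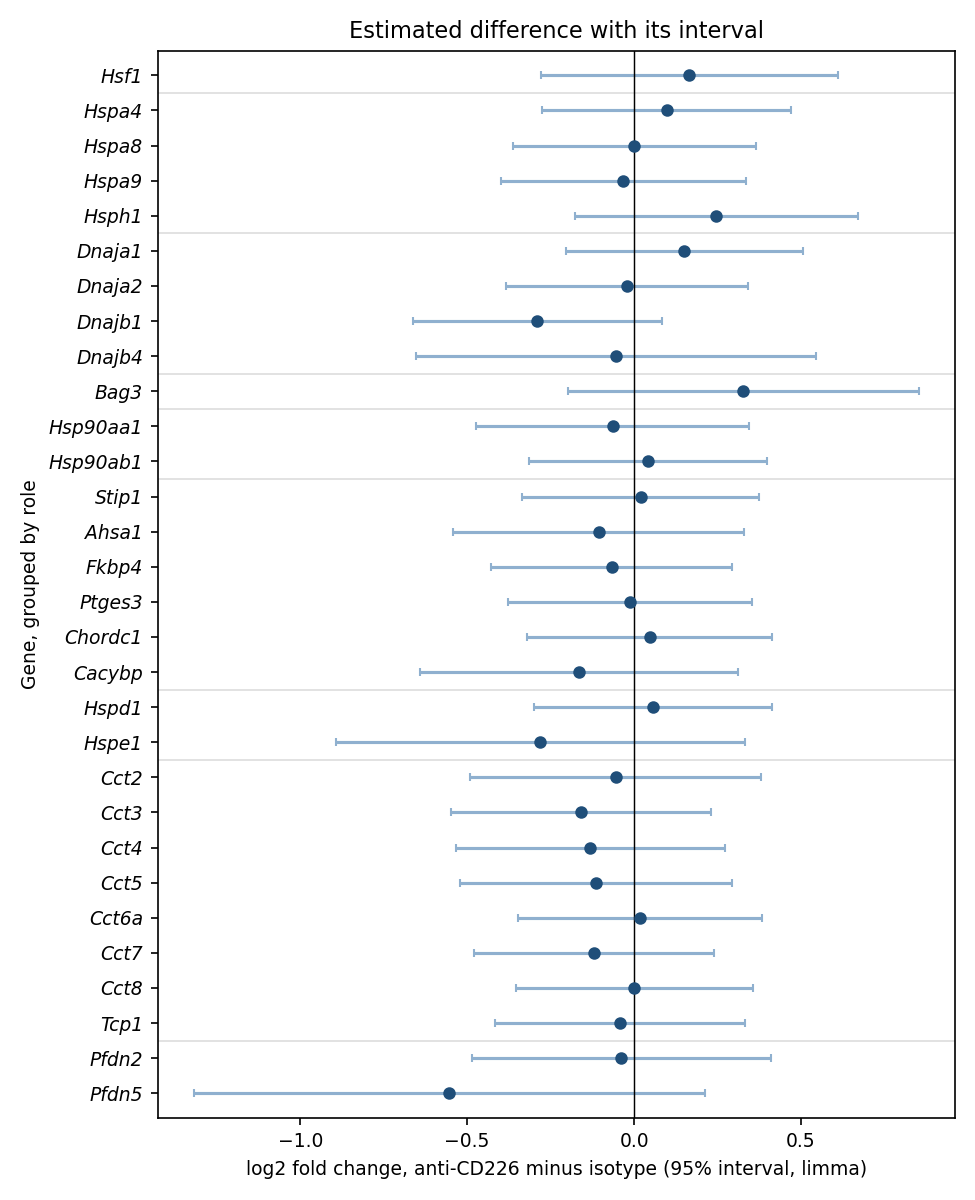
Points are log2 fold changes, anti-CD226 minus isotype, from limma, and bars their 95% intervals (2 libraries a group). All 30 intervals include 0; the interval of Pfdn5 reaches -1.32 and that of Bag3 0.85.

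Hsf1, the factor that drives the heat shock response, stood at 854 and 841 normalised reads in isotype replicates 1 and 2 and at 829 and 1090 in anti-CD226 replicates 1 and 2. The first 3 libraries were close to each other, and only anti-CD226 replicate 2 was higher. The log2 difference was 0.17 (standard error 0.19, limma, adjusted p = 0.98), and it was -0.03 without anti-CD226 replicate 2. Hspb1, a small heat shock protein that keeps unfolded proteins from clumping, was close to undetected. It stood at 4.42 and 5.15 with the isotype control and at 3.35 and 4.41 with anti-CD226, which is 3.26 to 6.67 reads, against a floor of 2.32 to 3.32 for 3 reads. No fold is given for it.

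The HSP70 genes were high and level. Hspa8, the constitutive cytosolic HSP70, had the highest level of the members per kilobase of transcript (a mean of 12955 normalised reads per kilobase). It stood at 30646 and 31359 normalised reads with the isotype control and at 32173 and 29877 with anti-CD226, where 1 library was above and 1 below both controls. Its log2 difference was 0.00018 with a 95% interval from -0.36 to 0.36, and its sign turned when libraries were scaled to the same total or upper quartile. Hspa9, the HSP70 of mitochondria, stood at 6697 and 6262 against 6655 and 6029. Hspa4, an HSP110 protein that exchanges nucleotide on HSP70, stood at 10407 and 9436 against 10091 and 11135. In both genes the groups overlapped.

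Hsph1, the HSP110 protein whose transcript is induced by heat, stood at 1925 and 1728 with the isotype control and at 1923 and 2431 with anti-CD226. Anti-CD226 replicate 1 fell between the controls and replicate 2 was above both. Hsph1 had a log2 difference of 0.25 (standard error 0.18, limma, adjusted p = 0.98), and 0.08 without anti-CD226 replicate 2. Bag3, an exchange factor of HSP70 that also leads clients to autophagy, followed the same order of libraries, with 296 and 259 against 292 and 413. Its log2 difference of 0.33, with a 95% interval from -0.20 to 0.85, was the highest of the members, and it was 0.08 without that library.

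Among the HSP40 genes, Dnajb1 and Dnaja1 had groups that did not overlap. Dnajb1, the HSP40 most responsive to heat, stood at 1742 and 1770 with the isotype control and at 1487 and 1387 with anti-CD226. Both anti-CD226 libraries were lower than both controls, and the log2 difference was -0.29 (standard error 0.16, limma, adjusted p = 0.98). It stayed between -0.34 and -0.24 whichever library was left out, in none of which it passed. With the length trend of each library removed, its unadjusted p was 0.028, the only one of the members below 0.05 there, where 3.11% of all genes were; the adjusted p was 0.996. Dnaja1, a farnesylated HSP40, stood higher in both anti-CD226 libraries, with 4341 and 4418 against 4909 and 4814, a log2 difference of 0.15. Part of its exons overlap those of Smu1 on the other strand, which stood at 2369 and 2418 against 2366 and 2341. The other 2 HSP40 genes overlapped between groups. Dnaja2 stood at 3513 and 3488 against 3571 and 3328, and Dnajb4, the HSP40 with the lowest level, at 74.0 and 68.8 against 68.0 and 69.4.

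HSP90 was level in its constitutive form and more variable in its inducible form. Hsp90ab1, the constitutive cytosolic HSP90, stood at 23569 and 23849 with the isotype control and at 24482 and 24340 with anti-CD226. The groups did not overlap, but the difference was 0.04 on the log2 scale with a standard error of 0.15. Hsp90aa1, the inducible form, stood at 10007 and 11594 against 11351 and 9351. Its range within each group was wider than the difference between the means, -0.06 on the log2 scale. Per kilobase of transcript, Hsp90aa1 reached 0.375 and 0.430 of the level of Hsp90ab1 with the isotype control and 0.410 and 0.339 with anti-CD226. The ratio thus overlapped between groups (exact permutation test on the ratio of the values, two-sided, p = 0.667).

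The 6 HSP90 co-chaperones had a median log2 difference of -0.04. Stip1, which bridges HSP70 and HSP90, was the steadiest of the members relative to its level, with 5241 and 5136 against 5302 and 5219, a coefficient of variation of 1.32% over the 4 libraries. Ptges3, the co-chaperone p23 that stabilises the closed form of HSP90, stood at 4116 and 4340 against 4367 and 4014. Fkbp4, an immunophilin of steroid receptor complexes, stood at 3555 and 3541 against 3495 and 3279. Of these, Fkbp4 alone had groups that did not overlap, at a log2 difference of -0.07.

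Ahsa1, which activates the ATPase of HSP90, stood at 2299 and 2798 with the isotype control and at 2625 and 2115 with anti-CD226, so that its spread within a group was larger than the difference between groups. Chordc1, a co-chaperone with zinc-binding domains whose promoter holds 5 matches, stood at 2273 and 2358 against 2468 and 2317. In anti-CD226 replicate 2, where Hsph1 was highest, Chordc1 lay between the controls. Cacybp, which binds S100 proteins, stood at 2815 and 2944 against 3084 and 2139, high in anti-CD226 replicate 1 and low in replicate 2.

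The genes of the mitochondrial chaperonin differed from each other in 1 library. Hspd1, or HSP60, stood at 5595 and 5862 with the isotype control and at 5856 and 6063 with anti-CD226. Hspe1, or HSP10, which shares the promoter printed above, stood at 1621 and 1918 against 1916 and 1099. Hspd1 was thus highest, and Hspe1 lowest, in the same library. The ratio of Hspd1 to Hspe1 was 3.45 and 3.06 with the isotype control and 3.06 and 5.52 with anti-CD226 (exact permutation test, two-sided, p = 0.667), so the 2 anti-CD226 libraries differed more from each other than the controls did. The difference of the mean ratios was 1.03, and it was -0.20 without anti-CD226 replicate 2. The genes' annotated exons overlap by 112 bases on opposite strands, and their transcripts are 2423 and 774 bases long.

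Hspe1 had a log2 difference of -0.28 (standard error 0.26, limma, adjusted p = 0.98). Leaving out a library decided this value: it was 0.12 without anti-CD226 replicate 2 and -0.68 without anti-CD226 replicate 1 (limma, adjusted p = 0.0076), a fit that takes the spread of the single anti-CD226 library to be that of the isotype libraries, and where 12.6% of all genes were called. Pfdn5, the prefoldin subunit also known as a binding partner of MYC, was the only other member called there, at -1.09 (limma, adjusted p = 0.00010). At an unadjusted p below 0.05 that fit held 5 members, with Hsph1, Bag3 and Cacybp, where 26.9% of all genes passed. With libraries paired across the replicate numbers, a setting added after the data were seen, Dnajb1 and Pfdn5 had an unadjusted p below 0.05, where 9.74% of all genes did, and neither passed after adjustment.

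The CCT genes were lowest in the same library more often than not: 7 of the 8 subunits had their lowest value in anti-CD226 replicate 2, and Cct8 was lowest in isotype replicate 1. Cct5 stood at 7308 and 7473 with the isotype control and at 7698 and 6064 with anti-CD226. Cct3 stood at 6855 and 7339 against 6964 and 5797, and Cct4 at 4792 and 4961 against 4973 and 3982. In these 3 genes anti-CD226 replicate 1 lay within or above the range of the controls and replicate 2 below it.

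Cct2 had the same order, with 2956 and 3234 against 3422 and 2589, and so did Tcp1, the subunit CCT1, with 6946 and 7124 against 7346 and 6349. Cct6a stood at 6415 and 6430 against 6873 and 6160. Cct7 was the one subunit whose groups did not overlap, with 9093 and 9117 against 8731 and 8046, a log2 difference of -0.12 with a standard error of 0.16. Cct8 was level, with 7409 and 7661 against 7658 and 7417. Over the 8 subunits the median log2 difference was -0.08, and 6 were lower and 2 higher. It was 0.04 without anti-CD226 replicate 2 and -0.22 without anti-CD226 replicate 1.

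The subunits occupy 1 position each in a CCT ring, but their transcripts were not equal. Per kilobase of transcript, Cct5 was highest in isotype replicate 1 with 3944 normalised reads and Cct2 lowest with 1509, a ratio of 2.61, and the ratio of highest to lowest was 2.38 to 2.61 in the 4 libraries. The order was the same in the first 3 libraries: Cct5, Cct7, Cct3, Cct8, Tcp1, Cct6a, Cct4 and Cct2. In anti-CD226 replicate 2, Cct7 (3296) came just before Cct5 (3273) and Cct8 (3098) before Cct3 (2932), while the 4 lower places were the same. Neighbours such as Cct5 and Cct7 therefore did not keep their order beyond the spread of libraries, whereas Cct4 and Cct2 were below the other 6 in each library. The levels per kilobase depend on the 1 annotated transcript chosen for each gene.

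**Figure D3:**
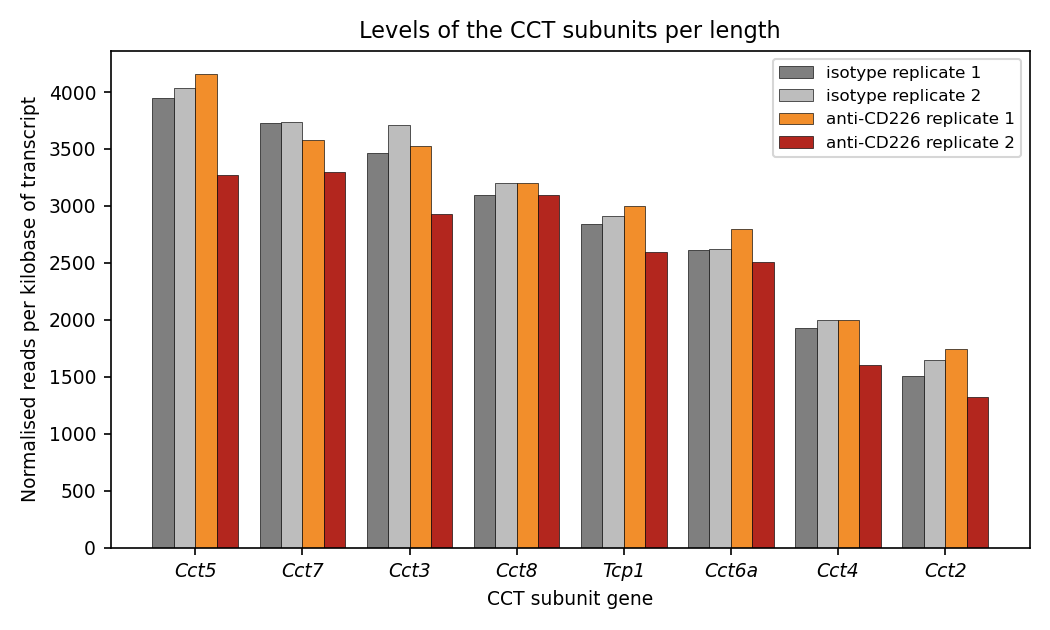
Bars are normalised reads per kilobase of transcript for the 8 CCT subunit genes (x axis) in each of the 4 libraries. Cct2 is lowest in each library, between 1322 and 1747, and Cct5 reaches 4154 in anti-CD226 replicate 1.

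Prefoldin feeds unfolded actin and tubulin to CCT, and its measured members included the most variable gene of the set. Pfdn5 stood at 672 and 828 with the isotype control and at 739 and 349 with anti-CD226. Anti-CD226 replicate 1 lay between the controls and replicate 2 was 1.09 below their mean on the log2 scale. The log2 difference of the groups was -0.55 with a standard error of 0.33 and a 95% interval from -1.32 to 0.21 (limma, adjusted p = 0.98), and it was -0.01 without anti-CD226 replicate 2. Pfdn5 shares 165 exonic bases on the same strand with Myg1, which stood at 550 and 636 against 628 and 548. Pfdn2 stood at 565 and 585 against 634 and 493, above both controls in one anti-CD226 library and below both in the other.

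Differences between libraries went with transcript length, within both groups. Of the 30 members, 24 were lower in anti-CD226 replicate 2 than in replicate 1 and 6 higher. Replicate 2 was the lowest of the 4 libraries in 19 members (63.3%), against 37.2% of all genes tested, and the highest in 5 (16.7%), against 37.0%. Across the 30 members, Spearman's rho between length and the log2 difference of replicate 2 from replicate 1 was 0.51, and across 12737 genes with a length it was 0.52. Between the isotype libraries, replicate 2 minus replicate 1, rho was -0.49 across the members and -0.39 across all genes. The log2 difference between groups went with length too, at 0.51 and 0.43. These are descriptions over genes of the same libraries. In the length decile around 580 bases the median gene was 0.59 lower in replicate 2 than in replicate 1 on the log2 scale, and in that around 7389 bases 0.42 higher.

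With each library's length trend removed, 26 of the 30 members were in anti-CD226 replicate 2 on the same side of the isotype mean as before, and Hspa4, Dnajb4, Ptges3 and Chordc1 were on the other. Hspa4 went from 0.17 to -0.06 and Chordc1 from 0.00094 to -0.30, while Ahsa1 went from -0.26 to -0.05. The 6 members more than 0.35 from the isotype mean in that library before removal, a distance chosen after the values were seen, were on the same side after it. The log2 distance of Hspe1 (774 bases) from the isotype mean was -0.68 before and -0.29 after removal, and that of Pfdn5 (1062 bases) was -1.09 and -0.80. For Cacybp (2098 bases) the values were -0.43 and -0.37. On the other side, Bag3 (2562 bases) lay at 0.58 before and 0.56 after, Hsf1 (2084 bases) at 0.36 and 0.43, and Hsph1 (3140 bases) at 0.41 and 0.32. The distance of Hspe1 from the isotype mean was thus less than before by more than that of the other 5. No member passed in this fit.

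**Figure D4:**
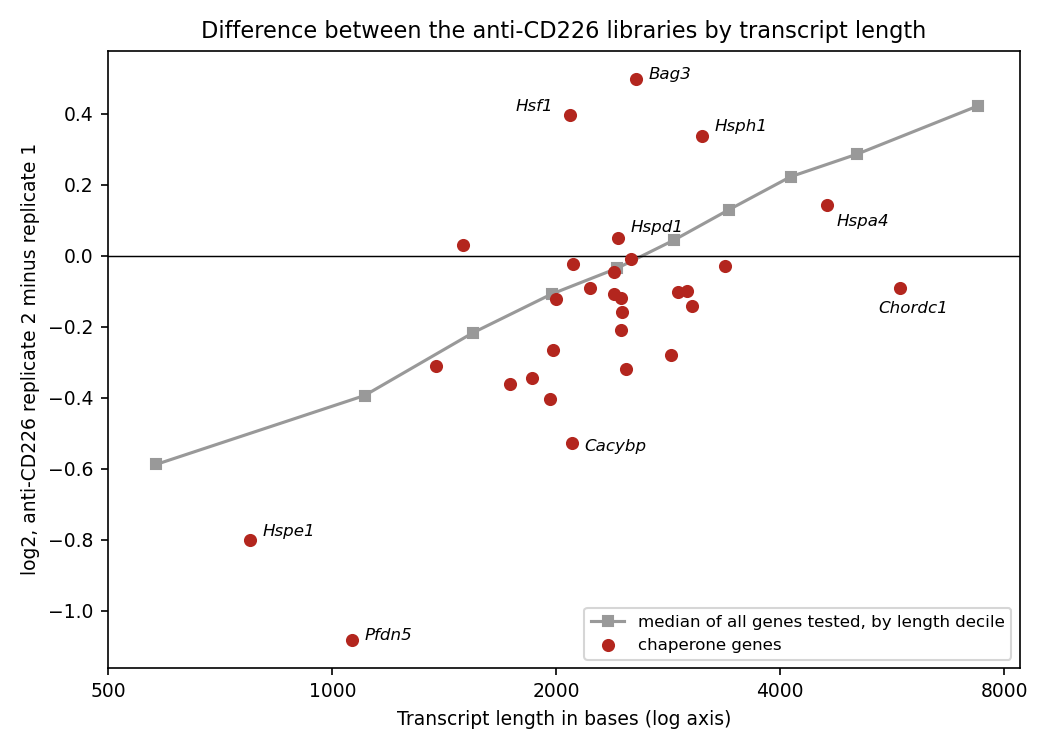
The x axis is transcript length in bases on a log axis, and the y axis the log2 difference of anti-CD226 replicate 2 from replicate 1; red points are the 30 members and grey squares the medians of all genes tested in each length decile. Hspe1 and Pfdn5 are the lowest members, below the grey line, and Bag3, Hsf1 and Hsph1 are above it.

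The members are given next by their promoters, with no test between the sets. The 11 tested members with a match to the heat shock element letters had 6 higher and 5 lower and a median log2 difference of 0.02. The 13 without a match had 3 higher and 10 lower and a median of -0.04. Of the 4 with at least 3 matches in a window, Hsph1, Chordc1 and Hspd1 were above 0 and Hspe1 below it, and none passed.

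Other genes of the same machinery, listed together with 12 actin and tubulin genes whose products CCT folds, gave a like picture. Of 88 listed, 77 were tested, 34 higher and 43 lower with a median log2 difference of -0.04, and 0 passed the adjusted threshold. The groups did not overlap in 18 of the 77, where 26.8% of all genes did not. At an unadjusted p below 0.05 there were 2, a share close to the 2.37% of all genes, and both are co-chaperones of HSP70. Dnajc21, an HSP40 protein of ribosome assembly, stood at 428 and 461 with the isotype control and at 659 and 596 with anti-CD226, a log2 difference of 0.50 (standard error 0.18, limma, adjusted p = 0.98). Bag6, which guards newly made membrane proteins and was picked out after its values were seen, stood at 1337 and 1273 against 1080 and 848, a difference of -0.45. In both genes the groups stood apart.

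The remaining genes named from these lists did not pass either threshold. The regulators and HSP70 relatives were Hsbp1, which binds HSF1 (1255 and 1459 against 1351 and 916), Hspa14 (1848 and 1944 against 1833 and 1753) and Hspa4l (392 and 414 against 410 and 539). Hspa4l, an HSP110 relative of Hsph1, was likewise above the other 3 libraries in anti-CD226 replicate 2. Dnajc9, an HSP40 that also chaperones histones, stood at 4757 and 5183 against 4875 and 3311, and Hspb11 at 69.6 and 91.2 against 85.5 and 47.4. Both were lowest in anti-CD226 replicate 2.

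Cdc37, which brings kinases to HSP90, stood at 3755 and 3872 against 3982 and 3321, and Ruvbl1 of the R2TP complex at 1621 and 1644 against 1526 and 1319. Only in Ruvbl1 did the groups of this pair not overlap, at a log2 difference of -0.20. In mitochondria, the protease gene Lonp1 stood at 2023 and 1681 against 1776 and 1964 and Hscb, an HSP40 of iron-sulfur cluster transfer, at 143 and 153 against 135 and 87.1. Hscb was lower in both anti-CD226 libraries, at -0.44 with a standard error of 0.27.

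Among the partners of CCT, the prefoldin subunit Vbp1 stood at 1738 and 2047 against 2162 and 1720 and Pdrg1 at 845 and 982 against 875 and 639. The 11 actin and tubulin genes tested, whose products CCT folds, had 4 higher and 7 lower and a median of -0.05. Actb stood at 237440 and 225136 against 245307 and 231036, with overlapping groups. Tubb2a was lower in both anti-CD226 libraries, with 301 and 270 against 225 and 237 and a log2 difference of -0.30 (limma, adjusted p = 0.98).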

How the data were processed

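The labels assign 2 mouse lung ILC2 libraries to each antibody. Per the labels' protocols, cDNA came from 10 pg of RNA with a SMARTer Ultra Low Input kit. The submitters' processing notes name STAR 2.7.8, Partek 10.0, DESeq2 and build mm10; for the counter, annotation and strand setting the sources used here give nothing. What the authors deposited is a signal, reads divided by 1 factor a library, which was read off the values: 73.5% to 75.1% of those between 0.5 and 1000 steps were multiples of a step to within 0.02. That is too few for a count test. Depth is the total over the step. The floor of 3 reads covers counting error only, since amplified reads are not independent molecules. 210 gene columns were checked singly; the others were taken to hold the same unit.

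Tests were two-sided, by limma 3.58.1 (R 4.3.3) with trend and no replicate term, on log2(value + 1) for genes with a mean of at least 10; fold changes on this scale understate those of low genes. It had 2 residual and 5.81 prior degrees of freedom. Scripts were tested on simulated data. GENCODE M21 (GRCm38, the assembly of mm10) gave exon overlaps and, for 97.5% of genes, the length of 1 principal transcript. Promoters are RefSeq's on GRCm38.p6. Of the members, 5 have a named copy in the table and 9 share exonic bases with another gene there, so some of their reads may be split or shared.

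The members and lists were chosen with earlier results of these data known. The rule for naming takes all members, Cd226, and from each list of other pathway genes the gene with the highest value and that with the smallest p. From the lists of cell markers and RNA quality only some genes are named. Alternatives were the pseudocount, filter, 2 scalings, removal of the length trend, limma without trend, a block for the replicate number and each library left out in turn; crossed pairs were added after seeing the data.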

Additional observations from a re-analysis of the deposited data

How the results depend on the processing

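No member passed under another pseudocount, filter, scaling or variance setting, nor with a replicate block, and among all genes 0 passed except with the replicate block, where 20 did. Members whose groups do not overlap numbered 5 to 7 of 30 under these settings. In the main setting 26.8% of all genes tested did not overlap, and the share under the other settings is not given here. The numbers 1 and 2 pair nothing in the labels. The deviations of same-numbered libraries correlated at -0.24; with crossed pairs, chosen after seeing the data, 61 genes and 0 members passed. Leaving out a library changed more, in fits that lend the single library the spread of the opposite group. The count of genes past the threshold was then 12 to 1633, that of members 0 to 2 (2 only without anti-CD226 replicate 1), and that of members whose groups do not overlap 10 to 26 of 30, where 47.6% to 82.6% of all genes did not overlap. The median of the CCT genes ranged from -0.22 to 0.044. The difference in the members' share of signal ranged from -0.063 to 0.024 percentage points, in the ratio of Hsp90aa1 to Hsp90ab1 from -0.071 to 0.0083, and in that of Hspd1 to Hspe1 from -0.20 to 2.26.

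The sign turned under some alternative for 20 of 30 members, and 10 kept it under all. Scaled to the same total, Hspa8 was at -0.0071 and Cct8 at -0.0069. Scaled to the same upper quartile, Hspa8 was at -0.026, Stip1 at -0.0060, Cct6a at -0.0072 and Cct8 at -0.025. With the length trend removed, Hspa4 was at -0.019, Dnajb4 at 0.026, Ptges3 at 0.022, Chordc1 at -0.11 and Pfdn2 at 0.018, and the median of the HSP70 and HSP110 genes was -0.0073. Leaving out a library turned 16 signs, with ranges from -0.032 to 0.36 for Hsf1, -0.053 to 0.054 for Hspa8, -0.10 to 0.039 for Hspa9, -0.073 to 0.029 for Dnaja2, -0.20 to 0.076 for Hsp90aa1, -0.26 to 0.049 for Ahsa1, -0.074 to 0.047 for Ptges3, -0.43 to 0.10 for Cacybp, -0.68 to 0.12 for Hspe1, -0.26 to 0.15 for Cct2, -0.29 to 0.029 for Cct4, -0.29 to 0.059 for Cct5, -0.060 to 0.10 for Cct6a, -0.024 to 0.025 for Cct8, -0.15 to 0.063 for Tcp1 and -0.22 to 0.14 for Pfdn2. The cause was not tested. Depth limits only Hspb1 and, less so, Dnajb4, which had at least 63.0 reads in each library.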

Other observations

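The strictly inducible HSP70 genes, picked out after their values were seen, were low in these cells. Hspa1a stood at 34.1 and 10.7 normalised reads with the isotype control and at 12.3 and 13.3 with anti-CD226, and its near-identical neighbour Hspa1b at 114 and 44.9 against 53.6 and 73.6. In both genes isotype replicate 1 was the highest library, and reads of one cannot be cleanly told from those of the other. Hsbp1 and, also picked out after its values were seen, Hsf2, other regulators of the response, were both lower in isotype replicate 1 and anti-CD226 replicate 2 than in the other 2 libraries, Hsf2 with 67.4 and 105 against 102 and 67.2.

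Copies of 5 members are listed by name in the table. Hspd1-ps3 stood at 259 and 259 with the isotype control and at 226 and 252 with anti-CD226. Ptges3-ps, Hspa9-ps1, Hspe1-ps2 and Cct3-ps1 were at or below 48.3 in every library.

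The immediate early genes, which cell handling can raise, had 12 members tested, 7 higher and 5 lower with a median log2 difference of 0.09, and 0 passed. Junb was level, with 3585 and 3571 against 3581 and 3474, and Egr2 stood at 13.3 and 6.18 against 18.5 and 27.6 (limma, adjusted p = 0.98).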
